A study of Homo sapiens with 22 samples.

Results

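The 246 genes described here are the protein-coding genes of human chromosome 19 whose symbol is ZNF followed by digits and an optional letter, out of 19970 protein-coding genes in the RefSeq annotation used. They were chosen by symbol and position alone, and each was read through the peaks that lie within 1 kb of a gene boundary. The peaks come from CUT&RUN, in which an antibody directs a nuclease to chromatin and the released fragments are sequenced. The study profiled 2 established cell lines of Ewing sarcoma, a tumour with the EWS-FLI1 fusion, named A673 and CHLA10, and its title names HOXD13 beside that fusion. Of 22 libraries, 18 came with a peak list, 9 per line, and the 4 IgG libraries came without.

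The A673 group held 2 libraries each for H3K4me3, H3K4me1 and H3K27me3 (antibodies at 1:100) and 2 for H3K27ac (1:50), all from cells labelled shNS, plus 1 HOXD13 library (1:20) without that label. The CHLA10 group held the same set, with the same labels and dilutions. What shNS stands for is not spelled out, and both lines carry the label in every histone library. Each group is a single cell line, and nothing says that its libraries came from separate cultures, so the spread between libraries may be technical. The lists hold called peaks without reads, and the depth behind a peak is unknown. H3K4me3 lists held 17909 and 18497 peaks on chromosomes 1 to 22 and X in A673, against 21384 and 21164 in CHLA10. All 8 Ewing sarcoma genes on a short marker list (CD99, NKX2-2, NR0B1, STEAP1, CCND1, LIPI, PRKCB and IL1RAP) had H3K4me3 at a boundary in all 4 libraries. Of 10 genes of blood, epithelium, muscle and endothelium, KRT8 alone did so, while MYOD1 had the mark in both A673 libraries, EPCAM in both CHLA10 libraries, CDH1 in 1 library of each line and 6 in none.

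Most ZNF genes of chromosome 19 encode C2H2 zinc finger proteins with a KRAB domain. Such proteins bind DNA through their fingers, many of them within transposable elements, and recruit TRIM28, which brings the histone methyltransferase SETDB1 and heterochromatin proteins. The genes arose by tandem duplication and lie in clusters. Of the marks profiled, H3K4me3 is typical of promoters in use or poised for it, H3K27ac of promoters and enhancers in use, H3K4me1 of enhancers, and H3K27me3 of Polycomb silencing. A few members, such as ZNF536 and ZNF507, have no KRAB domain, and the symbol rule does not separate them.

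The results turn on genes that carried H3K4me3 at a boundary in CHLA10 and not in A673, and 4 promoters are shown for that reason. They are RefSeq sequences of GRCh38.p14, each from 250 bases before to 50 after the annotated start, on the strand of the gene, with CG dinucleotides in capitals. ZNF667 (chr19:56477296-56477595, minus strand), ZNF682 (chr19:20039456-20039755, minus strand) and ZNF793 (chr19:37506689-37506988, plus strand) had the highest-ranked peaks among members with H3K4me3 in CHLA10 only. ZNF274 (chr19:58182811-58183110, plus strand) had the mark in all 4 libraries.
ZNF667: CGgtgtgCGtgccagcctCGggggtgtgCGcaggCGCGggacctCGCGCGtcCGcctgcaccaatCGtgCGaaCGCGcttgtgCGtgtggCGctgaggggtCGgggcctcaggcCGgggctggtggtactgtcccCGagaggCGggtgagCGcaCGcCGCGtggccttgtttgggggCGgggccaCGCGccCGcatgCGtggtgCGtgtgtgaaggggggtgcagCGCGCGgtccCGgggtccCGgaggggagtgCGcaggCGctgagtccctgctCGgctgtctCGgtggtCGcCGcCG
ZNF682: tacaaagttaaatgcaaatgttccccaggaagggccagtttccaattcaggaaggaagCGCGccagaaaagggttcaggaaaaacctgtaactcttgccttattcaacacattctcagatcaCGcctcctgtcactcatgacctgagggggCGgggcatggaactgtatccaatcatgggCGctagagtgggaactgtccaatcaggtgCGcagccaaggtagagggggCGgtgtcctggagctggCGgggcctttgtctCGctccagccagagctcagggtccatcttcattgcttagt
ZNF793: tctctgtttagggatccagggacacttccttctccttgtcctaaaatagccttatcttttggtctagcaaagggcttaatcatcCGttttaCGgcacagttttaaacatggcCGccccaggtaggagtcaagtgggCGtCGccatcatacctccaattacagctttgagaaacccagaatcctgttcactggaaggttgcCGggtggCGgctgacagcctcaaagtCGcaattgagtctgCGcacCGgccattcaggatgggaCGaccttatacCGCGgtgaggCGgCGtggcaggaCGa
ZNF274: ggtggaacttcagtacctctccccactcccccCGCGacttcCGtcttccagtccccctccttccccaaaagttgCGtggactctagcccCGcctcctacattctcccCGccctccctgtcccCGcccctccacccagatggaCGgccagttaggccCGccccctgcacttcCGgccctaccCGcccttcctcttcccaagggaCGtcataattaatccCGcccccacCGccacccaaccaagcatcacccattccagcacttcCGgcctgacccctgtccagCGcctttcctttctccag
The ZNF667 promoter held 42 CG dinucleotides, an observed over expected ratio of 1.03, whereas the ZNF682 promoter held 9 (0.419). The promoters of ZNF793 and ZNF274 held 16 each. H3K4me3 peaks covered 0 and 0 of the 300 promoter bases in the A673 libraries at ZNF667, ZNF682 and ZNF793. In the CHLA10 libraries they covered 300 and 300 bases at ZNF667 and at ZNF793, and 155 and 300 at ZNF682. At ZNF274, whose product recruits SETDB1 to the 3′ ends of other zinc finger genes, A673 peaks covered 54 and 47 of the 300 bases and CHLA10 peaks covered 300 and 300.

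Fewer members carried H3K4me3 in A673 than in CHLA10. The mark lay at a boundary of 181 and 185 members in the A673 libraries (73.6% and 75.2%), against 209 and 210 in the CHLA10 libraries (85.0% and 85.4%). Over all protein-coding genes the same shares were 65.3% and 65.1% in A673 and 65.3% and 65% in CHLA10. The members averaged 183 ± 2.83 marked genes in A673 and 209.5 ± 0.707 in CHLA10 (SD, n = 2 libraries each), a difference of -26.5. All protein-coding genes averaged 13019 ± 31.1 in A673 and 13015 ± 43.8 in CHLA10, a difference of 4. The members' ranges did not overlap between the lines, but a two-sided exact permutation test of 2 against 2 libraries cannot go below p = 0.333, which is the value obtained. Of the 216 members with an annotated start, 163 and 165 had a boundary peak in A673 and 188 and 189 in CHLA10. The peak lay at the start in 162 and 164 of these in A673 and in 186 and 187 in CHLA10. In 18 and 16 members in A673, and 15 and 14 in CHLA10, a peak lay at an annotated start outside the boundary windows. A member without a boundary peak can thus carry the mark at its start.

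**Figure D1:**
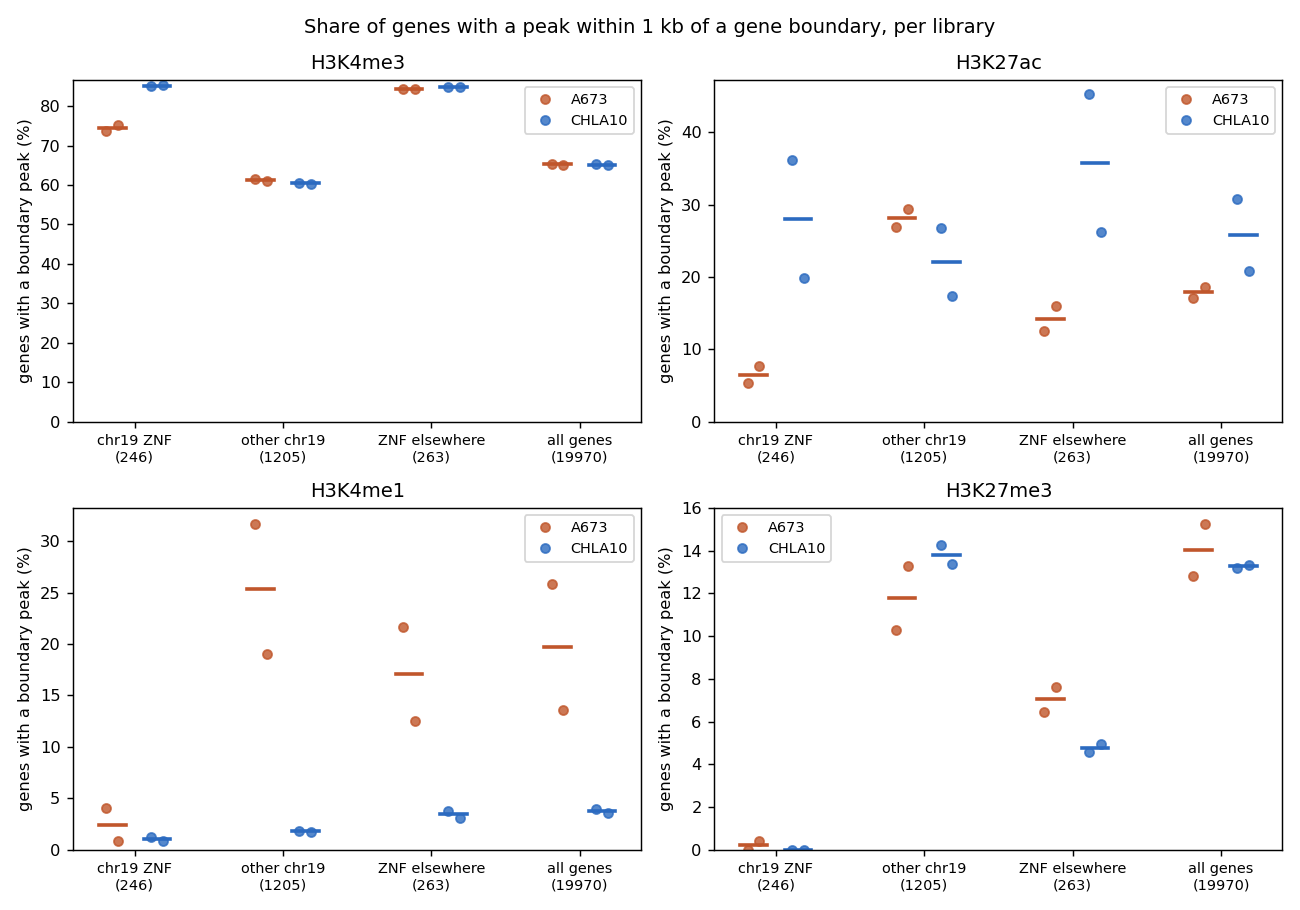
Share of genes (%) with a peak within 1 kb of a gene boundary in each library, for the 4 marks and 4 gene sets; dots are libraries and bars their mean. Among the chr19 ZNF genes H3K4me3 lies at 73.6% and 75.2% in A673 and at 85.0% and 85.4% in CHLA10, while over all genes the lines lie together near 65.3%.

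For calls in a single line, a boundary peak was required in each library of that line and in no library of the other. No member had H3K4me3 in A673 only, where 1.96% of all protein-coding genes did. By contrast, 22 members (8.94%) had it in CHLA10 only, where 1.98% of all genes did. That share was 1.49% of the 1205 other protein-coding genes of chromosome 19 and 1.90% of the 263 ZNF genes on other chromosomes. Of the 15 chromosome 19 genes named ZFP, ZSCAN, ZIM or ZIK, which are also zinc finger genes, 1 (6.67%) had it in A673 only and 2 (13.3%) in CHLA10 only. The 22 were ZNF177, ZNF682, ZNF90, ZNF486, ZNF257, ZNF492, ZNF681, ZNF726, ZNF565, ZNF793, ZNF880, ZNF528, ZNF578, ZNF415, ZNF347, ZNF665, ZNF677, ZNF331, ZNF667, ZNF835, ZNF418 and ZNF135. ZNF880 and ZNF528 adjoin and share a peak, at the end of ZNF880 and the start of ZNF528, which leaves 21 distinct peaks. Another 178 members (72.4%) had H3K4me3 at a boundary in all 4 libraries, against 61.2% of all genes. A further 34 (13.8%) had no boundary peak in any library, against 30.9%. The remaining 12 split between libraries of a line. ZNF91, a repressor of SVA retrotransposons, was among them, with a 219 bp peak in A673 replicate 1, none in A673 replicate 2, and peaks of 1152 and 1490 bp in the CHLA10 libraries.

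**Figure D2:**
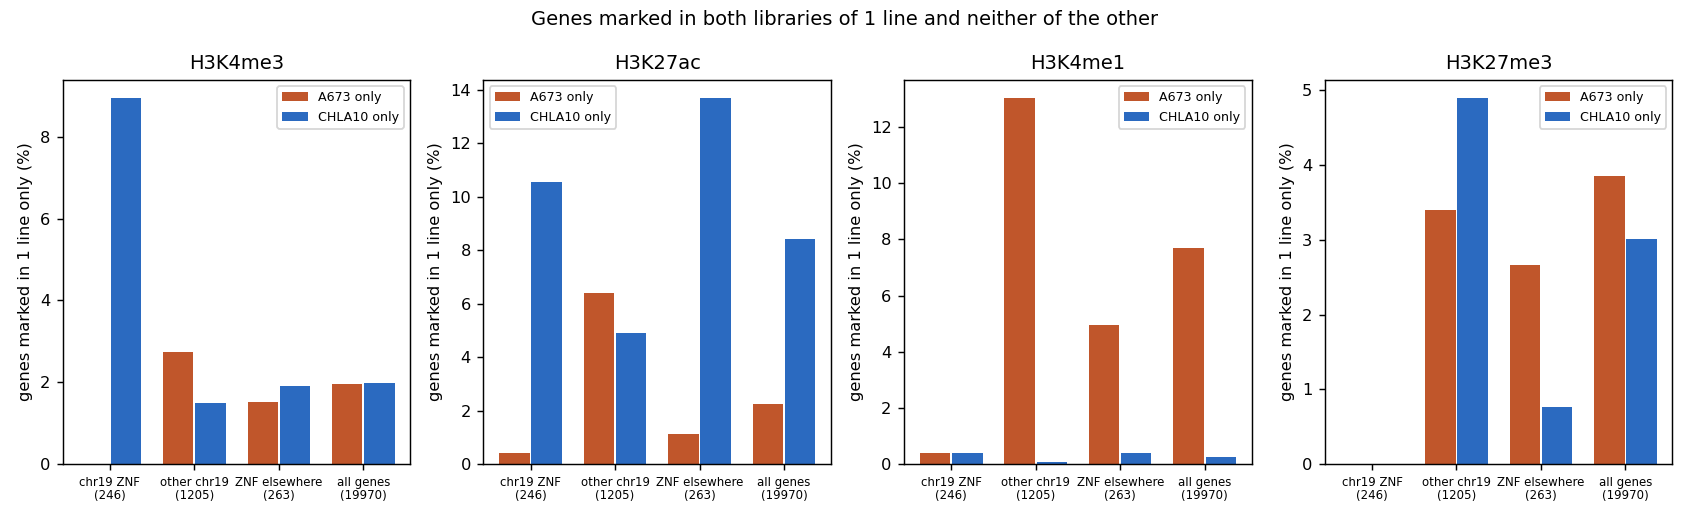
Percent of each gene set marked in both libraries of A673 and neither of CHLA10 (orange), or the reverse (blue), with bars from 0 and a separate scale per mark. For H3K4me3 the chr19 ZNF genes stand at 0 in A673 and 8.94% in CHLA10, against 1.96% and 1.98% of all genes.

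By rank within the CHLA10 lists, where the percentile of a peak is its place among all peaks of that list by the authors' −log10 q, the strongest of the 22 were ZNF667, ZNF682, ZNF793, ZNF486 and ZNF347. The authors' fold enrichment over background is given per peak and describes that peak alone. ZNF667 had no boundary peak in either A673 library, and in the CHLA10 libraries peaks at chr19:56476442-56478984 and chr19:56476399-56478984 with folds of 43.3 and 46.3. These peaks stood at the 90.3 and 95.0 percentiles of their lists. ZNF667 encodes a KRAB protein whose rat orthologue, Mipu1, is a stress-induced repressor. ZNF682 had none in A673, and in CHLA10 peaks of fold 32.5 and 30.1 at the 77.1 and 78.1 percentiles. ZNF793 had none in A673, and CHLA10 peaks of fold 29.3 and 27.5 at the 75.5 and 76.8 percentiles. The 22 thus included peaks well inside the upper part of the CHLA10 lists.

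At the other end stood ZNF331, an imprinted gene, and ZNF135. ZNF331 had none at a boundary in A673, and in CHLA10 peaks of 405 and 431 bp at the 17.4 and 11.1 percentiles. Those 2 peaks, at chr19:53504037-53504441 and chr19:53503606-53504036, abut without overlapping. ZNF135 had none in A673 and peaks of 516 and 240 bp in CHLA10 at the 14 and 17.6 percentiles. Over the 22 members the median percentile was 48.3 and 47.8 in the CHLA10 lists, against 74.5 and 71.5 for the members marked in all 4 libraries in the same lists.

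The nearest A673 H3K4me3 peak of either library lay a median of 53.7 kb from the CHLA10 peaks of the 22 members, and over 10 kb away at 20 of them. The shortest distance, 1.35 kb, belonged to ZNF880 and ZNF528 and came from A673 replicate 2 alone. ZNF492 had the longest, 440 kb. Both A673 libraries had an H3K4me3 peak elsewhere inside ZNF565 and ZNF331, beyond the boundary windows. No A673 library had H3K27ac, H3K4me1 or H3K27me3 at a boundary of any of the 22. In CHLA10, H3K27ac lay at ZNF486 and ZNF793 in both libraries and at ZNF90, ZNF667 and ZNF418 in 1, and H3K4me1 and H3K27me3 at none. H3K27me3 was equally missing from the other members, with 245 of the 246 free of it in every library, so its absence says nothing about the 22.

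The count of 22 depended on peak strength. With only the upper 50% of each list by q, 89 members (36.2%) carried H3K4me3 in CHLA10 only, where 6.61% of all genes did, and 2 (ZNF559 and ZNF792) in A673 only, where 2.04% did. Shares for CHLA10 only were then 7.30% of other chromosome 19 genes and 12.2% of ZNF genes elsewhere. The cut is each list's own median and fell at unlike −log10 q values in the 2 lines. Near it lay peaks of 78.5 (ZNF566) and 68.5 (ZNF426) in A673 replicates 1 and 2. In CHLA10 replicates 1 and 2, peaks near it had 30.7 (ZNF69) and 31.1 (ZNF554). An A673 peak left out by the cut can therefore have a higher −log10 q than a CHLA10 peak kept by it. Of the 22, 8 were among the 89, and 76 of the 89 had H3K4me3 in all 4 complete lists. With equal numbers of peaks in the 4 lists, 19 of the 22 remained, without ZNF331, ZNF418 and ZNF135. With a window at the annotated start, 18 of the 22 remained. ZNF565, ZNF880 and ZNF331 were lost there, as was ZNF665, which has no annotated start.

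Ranks within each list were then read without a cutoff. For the 178 members with H3K4me3 in all 4 libraries, the strongest boundary peak had a median percentile of 45.1 and 45.3 in the A673 lists. The 12044 other genes with the mark in all 4 libraries had medians of 67.9 and 69.1 there. In the CHLA10 lists the members had medians of 74.5 and 71.5 and the other genes 73.3 and 73.2. The 215 ZNF genes of other chromosomes stood at 66.9 and 64.9 in A673 and at 74.7 and 72.2 in CHLA10, near other genes in both. Members therefore ranked below other marked genes within each A673 list and close to them within each CHLA10 list. Median folds of the same member peaks were close between the lines, 22.5 and 19.9 in A673 against 24.6 and 20.3 in CHLA10. The lists differ in length and in the share of calls kept, so a rank is not a level. ZNF93, which silences L1 retrotransposons, stood at the 16.5 and 30.4 percentiles in A673 and at 83.9 and 74.4 in CHLA10. ZNF274 stood at 28.8 and 34.8 in A673 and at 65.7 and 78.8 in CHLA10. Of the 178, 76 were in the upper 50% of both CHLA10 lists and in the lower 50% of both A673 lists, and 2 were the other way round (42.7% and 1.12%). That split returns to the 50% cut above, where the same count of 76 was found, and adds no separate result. Among the 12044 other genes these shares were 9.51% and 2.76%, and among the 215 ZNF genes elsewhere 13.5% and 0.930%.

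**Figure D3:**
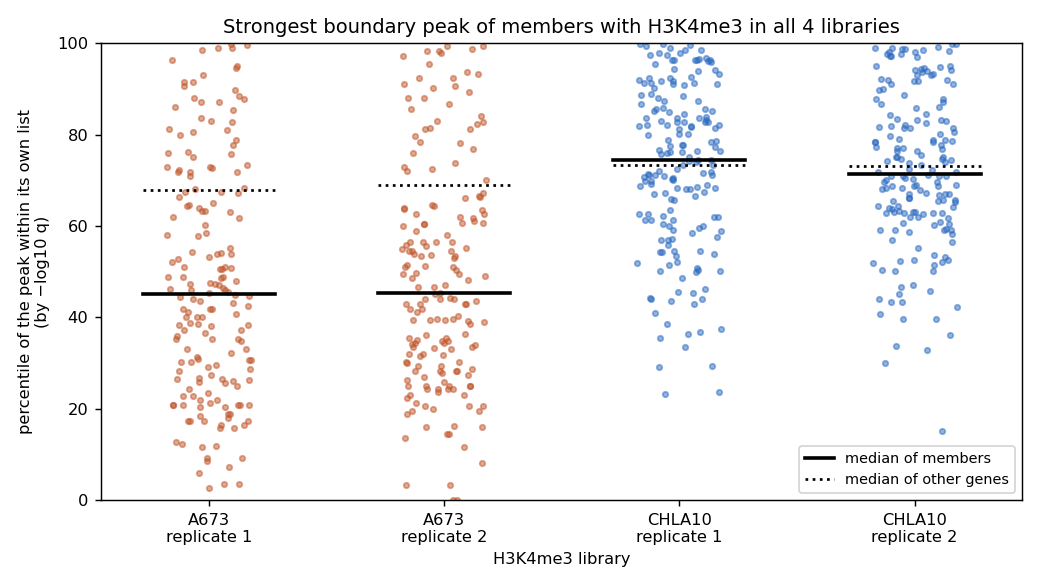
Percentile of the strongest boundary peak within its own list (vertical axis, by −log10 q) for the 178 members with H3K4me3 in all 4 libraries; dots are members, solid lines their median, dotted lines the median of other genes marked in all 4. The members' medians of 45.1 and 45.3 in A673 lie under the dotted lines, and those of 74.5 and 71.5 in CHLA10 lie beside them.

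H3K27ac was sparse at these genes in A673. It lay at 13 and 19 members in the A673 libraries (5.28% and 7.72%), against 89 and 49 in the CHLA10 libraries (36.2% and 19.9%). Over all genes the shares were 17.1% and 18.7% in A673 and 30.8% and 20.9% in CHLA10. The members averaged 16 ± 4.24 in A673 and 69 ± 28.3 in CHLA10 (SD, n = 2 each; two-sided exact permutation p = 0.333, the smallest possible). The ranges did not overlap, although the CHLA10 libraries lay far apart. For other protein-coding genes of chromosome 19 the shares were 27% and 29.5% in A673 and 26.7% and 17.3% in CHLA10. Of the CHLA10 libraries, replicate 2 alone lay clearly below A673 there, and its list is the shorter. Among the 178 members with H3K4me3 in all 4 libraries, H3K27ac lay at 7.30% and 10.7% in A673 and at 45.5% and 25.8% in CHLA10. For the 676 other chromosome 19 genes with that H3K4me3 state the shares were 33.1% and 37.6% in A673 and 45.0% and 29.3% in CHLA10. ZNF genes on other chromosomes with that state had a similar pattern, 14.9% and 19.1% in A673 and 52.1% and 31.6% in CHLA10, and the 12044 other genes had 21.2% and 23.3% in A673 and 46.6% and 31.8% in CHLA10. A lower share in A673 was thus not particular to the members, whose A673 shares were the lowest of these sets.

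Only ZNF506 had H3K27ac in both A673 libraries and neither CHLA10 library (0.407% of members, 2.23% of all genes, 6.39% of other chromosome 19 genes). Its A673 peaks were 257 and 389 bp long, at the 18 and 20.0 percentiles. In the reverse direction 26 members (10.6%) had it in CHLA10 only, against 8.4% of all genes, 4.90% of other chromosome 19 genes and 13.7% of ZNF genes elsewhere, so their share was near the background. Without CHLA10 replicate 2, whose list is the shorter, the count was 69, where 17% of all genes were called. The strongest by rank were ZNF587, ZNF738, ZNF227, ZNF524 and ZNF793. ZNF587 had none in A673, and in CHLA10 peaks of fold 10.1 and 8.62 at the 86.9 and 80.5 percentiles. ZNF224, a KRAB repressor that modulates the transcription factor WT1, had none in A673 and CHLA10 peaks of fold 6.69 and 5.92. ZNF561, ZNF490, ZNF791, ZNF780A and ZNF865 had H3K27ac in all 4 libraries (5 members, 3.96% of all genes), and 144 members (58.5%) had it in none (52.8% of all genes).

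H3K4me1 and H3K27me3 were almost absent from the members in both lines. H3K4me1 lay at 10 and 2 members in A673 and at 3 and 2 in CHLA10, where it lay at 25.9% and 13.6% of all genes in A673 and 3.93% and 3.56% in CHLA10. ZNF574 was the only member with H3K4me1 in A673 only (7.69% of all genes, 13.0% of other chromosome 19 genes). Its A673 peaks at the gene start, chr19:42068275-42068979 and chr19:42068660-42068963, overlapped, and replicate 1 had another at the gene end. Without A673 replicate 2 the count was 10, where 22.5% of all genes were called. ZNF536, a repressor of neuronal differentiation, was the only member with it in CHLA10 only (0.26% of all genes). In all 4 libraries H3K4me1 marked 0 members (0.491% of all genes), and in none of them 231 members (93.9%, against 67.5% of all genes). H3K27me3 lay at 0 and 1 members in A673 and at 0 and 0 in CHLA10, whereas it lay at 12.8% and 15.2% of all genes in A673 and at 13.2% and 13.3% in CHLA10. Called in 1 line only, it marked 0 members in A673 (3.86% of all genes) and 0 in CHLA10 (3.01%). The single boundary peak was that of ZNF536 in A673 replicate 2. Accordingly 245 members (99.6%) had no H3K27me3 in any library, against 78.2% of all genes, and 0 had it in all 4 (6.38%). No member had H3K4me3 in A673 only with H3K27me3 in CHLA10 only (0.0901% of all genes), the reverse (0.0951%), or both marks in all 4 libraries (1.84%).

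**Figure D4:**
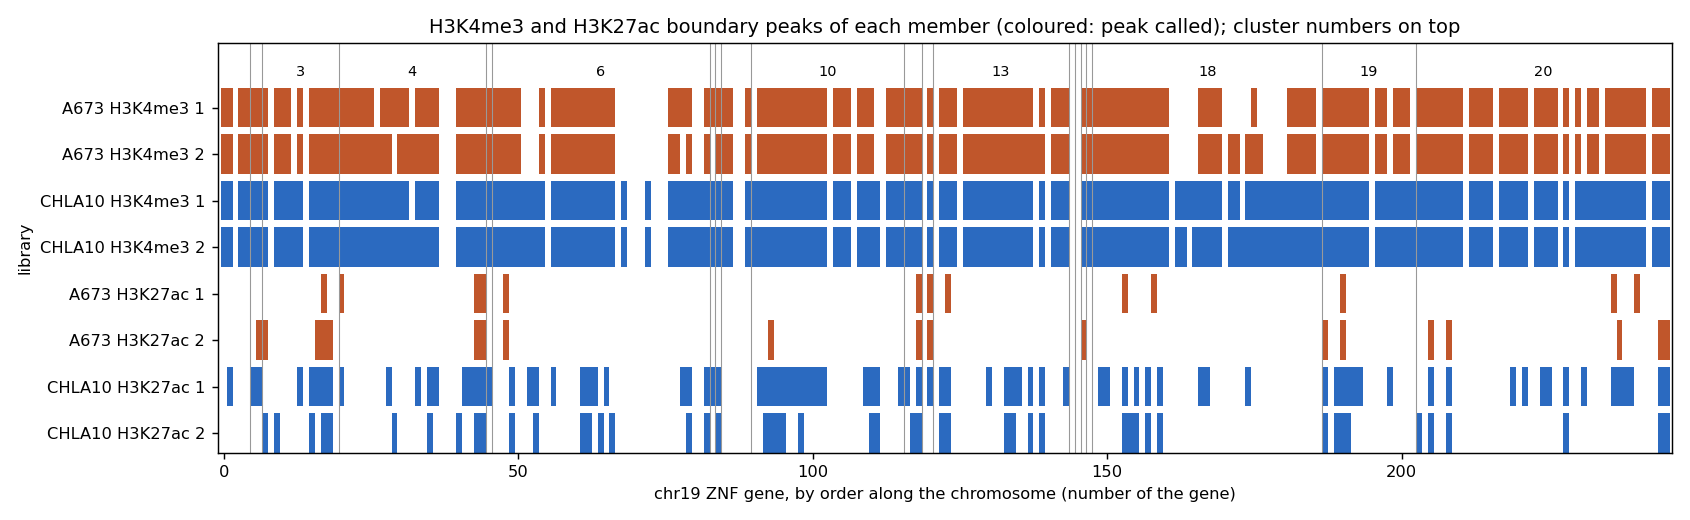
The 246 members in their order along chr19 (horizontal axis, number of the gene) by library (rows); a coloured cell is a called boundary peak, vertical lines separate clusters and the numbers on top name the clusters of 10 or more members. Gaps in the A673 H3K4me3 rows that are filled in the CHLA10 rows sit mostly in clusters 6 and 18, and the A673 H3K27ac rows hold 13 and 19 cells against 89 and 49.

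Along the chromosome, a gap of over 500 kb between neighbours divided the members into 20 clusters, numbered from the short arm end. Of these, 8 held 10 or more members each, 222 in all. Clusters 6 and 18 held 15 of the 22 members with H3K4me3 in CHLA10 only. Cluster 6, 37 members from ZNF101 to ZNF254 (19.7 to 24.1 Mb), had H3K4me3 at 22 and 21 members in A673 and at 29 and 29 in CHLA10, with 7 in CHLA10 only. Cluster 18, 39 members from ZNF175 to ZNF331 (51.6 to 53.6 Mb), had it at 23 and 27 in A673 and at 36 and 36 in CHLA10, with 8 in CHLA10 only. In cluster 13, 23 members from ZNF575 to ZNF180 (43.5 to 44.5 Mb), it lay at 19 and 20 in A673 and at 19 and 19 in CHLA10, with none in CHLA10 only. Cluster 4, 25 members from ZNF653 to ZNF791, also had none. Cluster 20, the largest with 43 members from ZNF264 to ZNF446, had 2 (ZNF418 and ZNF135).

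**Figure D5:**
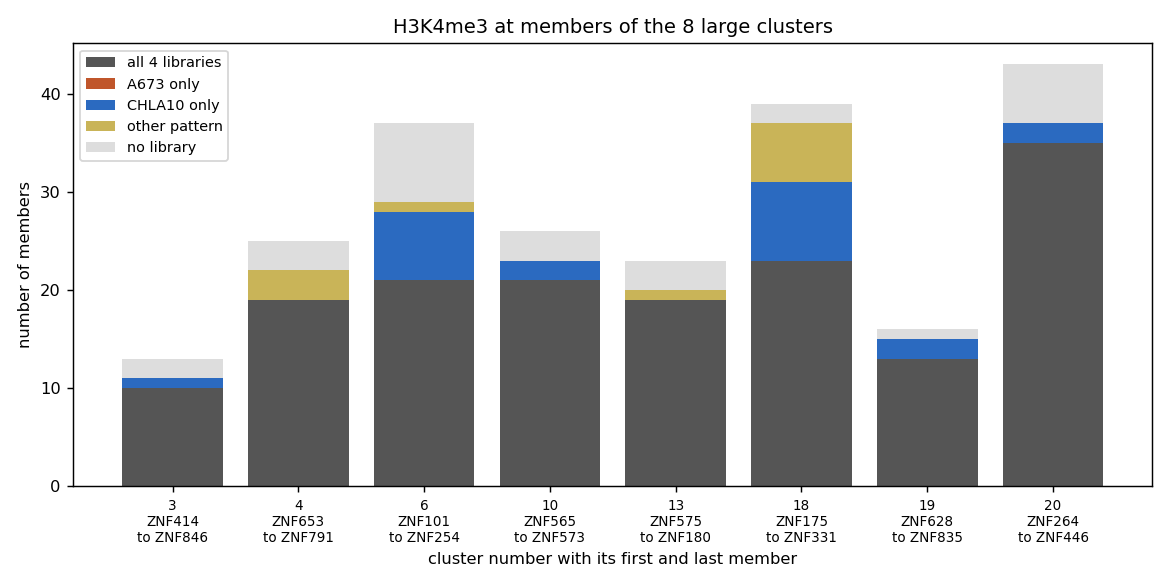
Number of members (vertical axis) by H3K4me3 state in the 8 clusters of 10 or more members, named by their first and last member. Clusters 6 and 18 hold 7 and 8 members marked in CHLA10 only, clusters 4 and 13 hold 0, and A673 only is 0 in each.

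Neighbouring members shared the state in places. The 22 fell into 15 runs of consecutive members, 11 of them of 1 member. The longest was ZNF415, ZNF347, ZNF665 and ZNF677 in cluster 18, followed by ZNF682, ZNF90 and ZNF486 in cluster 6. ZNF681 and ZNF726, and ZNF880 and ZNF528, were pairs. In the ranked view the difference was wider than these clusters. With the upper 50% of each list, cluster 20 held 23 members in CHLA10 only, cluster 18 held 19, cluster 6 held 12, and clusters 4 and 10 held 11 each. Cluster 3, 13 members from ZNF414 to ZNF846, held 0, and ZNF559 there was in A673 only. Its members marked in all 4 libraries had median percentiles of 71.9 and 67.3 in A673 and of 81.1 and 77.0 in CHLA10. In cluster 20 the medians were 30.2 and 34.8 in A673 and 70.7 and 72.2 in CHLA10.

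Over the 13.96 Mb spanned by the 8 clusters, H3K4me3 peaks covered 2.37% and 2.25% of the sequence in A673 and 3.43% and 3.51% in CHLA10. Over the rest of chromosome 19 they covered 4.09% and 3.89% in A673 and 3.60% and 3.68% in CHLA10. H3K27ac peaks covered 0.159% and 0.192% of the clusters in A673 and 0.556% and 0.333% in CHLA10, against 3.12% and 2.65% of the rest in A673 and 1.21% and 0.955% in CHLA10. H3K27me3 peaks covered 0.508% and 0.657% of the clusters in A673 and 2.10% and 2.37% in CHLA10, against 3.28% and 4.75% of the rest in A673 and 6.77% and 6.60% in CHLA10. H3K4me1 peaks covered 0.182% and 0.135% of the clusters in A673 and 0.0469% and 0.0249% in CHLA10. H3K4me3, H3K27ac and the repressive mark H3K27me3 thus covered more of the clusters in CHLA10. Over the rest of the chromosome H3K27me3 also covered more in CHLA10, whereas H3K4me3 and H3K27ac covered less. The 90 protein-coding genes inside the cluster spans that are not members had H3K4me3 in A673 only at 1 and in CHLA10 only at 4 (4.44%). Among the 1115 chromosome 19 genes outside the spans these counts were 32 (2.87%) and 14 (1.26%).

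Stretches of at least 100 kb without any peak of 1 line, holding at least 3 peaks of the other, were then read along the chromosome. Chromosome 19 held 29 stretches free of A673 peaks (8.70 Mb), of which 19 touched 36 members, and 7 free of CHLA10 peaks (4.62 Mb), of which 2 touched 5 members. A single stretch, chr19:24088042-27498785, which touches ZNF254, made up 3.41 Mb of the CHLA10-free total. It held 3 A673 peaks, the fewest the definition allows, so its length does not measure a difference between the lines. The order of the 2 counts turned with a minimum of 50 kb, to 43 A673-free and 84 CHLA10-free stretches, and with the upper 50% of each list the counts were 32 and 30. Without CHLA10 replicate 1 or 2 the CHLA10-free stretches numbered 15 or 12 and the A673-free stretches 21 or 21. Leaving out a list of a line can only widen the gaps between its peaks, and the order held in both settings. Because the order turned at 50 kb, the difference in number is not a result about the lines. The median over chromosomes was 55 A673-free and 92 CHLA10-free stretches. Within A673-free stretches lay 15 whole members, of which 14 were among the 22, which follows in part from how both were defined. The 15th was ZNF208, which had no H3K4me3 at a boundary in either line. The stretch at chr19:19987584-20565439 held ZNF682, ZNF90 and ZNF486, with 12 H3K4me3, 6 H3K27ac and 2 H3K4me1 peaks of the CHLA10 lists together. The stretch at chr19:53103375-53333658 held ZNF415, ZNF347, ZNF665 and ZNF677, with 10 H3K4me3 peaks and 1 H3K27me3 peak of CHLA10. ZNF835 lay in a stretch at chr19:56596318-57191091 with 9 H3K4me3, 8 H3K27me3 and 1 HOXD13 peak of CHLA10. ZNF676, ZNF729 and ZNF98, which had no H3K4me3 at a boundary in any library, lay inside a CHLA10-free stretch at chr19:22053204-22633890. That stretch held 3 A673 peaks, 2 of H3K4me3 and 1 of H3K27ac.

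HOXD13, a homeobox transcription factor, had a peak at a boundary of 2 members in A673 and of 0 in CHLA10, where it had peaks at 2.27% of all genes in A673 and 0.32% in CHLA10. ZNF350, which encodes the BRCA1-binding repressor ZBRK1, had its A673 peak at chr19:51986809-51986954, 0.031 kb from the gene boundary, with a fold of 13.7. That peak lay within the H3K4me3 peaks of both A673 libraries. ZNF132 had its A673 peak at chr19:58440279-58440398, 0.126 kb from the boundary, with a fold of 6.39; the same peak lies inside ZNF324B. HOXD13 peaks of both lines overlapped in 1 place inside ZNF536, at chr19:30447372-30447540 in A673 and chr19:30447312-30447610 in CHLA10, 222 kb from its boundary. The HOXD13 libraries lack the shNS label and have no replicate.

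Among 20 members listed for known roles as repressors or in tumours, 14 had H3K4me3 in all 4 libraries. They included ZNF93, ZNF274 and ZNF350, ZNF224 and ZNF382, the L1-binding ZNF765, ZNF568, whose mouse counterpart represses a placental Igf2 transcript, and ZNF808, which is needed for human pancreas development. ZNF331 and ZNF667 had it in CHLA10 only. ZNF331 dropped out over whole genes, at starts, and with the upper 50%, equal peak numbers or an overlap of 200 bp. ZNF558 and ZNF154 had H3K4me3 at a boundary in none, and ZNF91 and ZNF536 in 1 A673 library and both CHLA10 libraries. H3K27ac lay in CHLA10 only at ZNF507, ZNF382 and ZNF224, and in A673 only at none. With the upper 50% of each list, 8 of the 20 (ZNF93, ZNF536, ZNF568, ZNF808, ZNF765, ZNF582, ZNF667 and ZNF274) had H3K4me3 in CHLA10 only, close to the 36.2% of all members. The list's other counts were also near the shares over all members, 72.4% in all 4 libraries and 8.94% in CHLA10 only for H3K4me3, and 10.6% in CHLA10 only for H3K27ac.

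The genes for the cofactors of KRAB repression were read beside the members. Of 25 listed, 24 had H3K4me3 at a boundary in all 4 libraries, including TRIM28, SETDB1, the heterochromatin proteins CBX1, CBX3 and CBX5, and TASOR, MPHOSPH8 and PPHLN1 of the HUSH complex. UHRF1, a reader of methylated DNA, had none within its boundary windows, and 0 of the 25 had it in A673 only or in CHLA10 only, where 1.96% and 1.98% of all genes did, so a count of 0 in 25 is near the background. With the upper 50% of each list DNMT3B had it in A673 only (2.04% of all genes), and ATF7IP, TRIM28, TASOR and SUV39H1 had it in CHLA10 only (6.61% of all genes). H3K27ac lay in A673 only at HDAC1 and UHRF1 (2.23% of all genes) and in CHLA10 only at TASOR, SMARCAD1 and HDAC2 (8.4%). All 25 lacked H3K27me3 in every library, as did 78.2% of all genes.

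The promoters of the members resembled other promoters in CG content and differed in a short motif. The median observed over expected CG ratio was 0.765 over 216 members, against 0.763 over all 15812 promoters and 0.733 over other chromosome 19 genes. It was 0.734 for 21 members with H3K4me3 in CHLA10 only, 0.780 for 161 with it in all 4 libraries and 0.654 for 26 with it in none. Cluster 6 had the lowest median of the 8 clusters, 0.438. CCGGAAGT, letters of the kind bound by ETS family factors, was searched on both strands and found in 45 of 216 member promoters (20.8%), against 6.20% of all promoters, 4.44% of other chromosome 19 genes and 14% of ZNF genes elsewhere. It stood in 37 of the 161 promoters of members marked in all 4 libraries (23%) in 5 of the 26 marked in none (19.2%), and in 1 of the 21 marked in CHLA10 only, that of ZNF578. Among other genes it stood in 9.0% of those with H3K4me3 in all 4 libraries in 1.33% of those with it in A673 only, in 0.33% of those with it in CHLA10 only and in 0.683% of those with it in none. Of the listed members, ZNF274, ZNF568 and ZNF671 held it; 24 bases around each match are shown with the motif, or its reverse complement, in capitals.
ZNF274, chr19:58182969-58182992, plus strand: ccccctgcACTTCCGGccctaccc
ZNF274, chr19:58183061-58183084, plus strand: attccagcACTTCCGGcctgaccc
ZNF568, chr19:36916286-36916309, plus strand: tgttctggCCGGAAGTtgagtggg
ZNF671, chr19:57727626-57727649, minus strand: tgggcgggACTTCCGGctcctcct
ZNF578, chr19:52453509-52453532, plus strand: ctggaaacCCGGAAGTgaatcatg
ZNF274 held the motif in 2 places, both as the reverse complement. GGAAGGAA, 2 adjacent GGAA units, stood in 7 of the 216 promoters (3.24%), against 3.55% of all promoters, and CAATAAAA in 0, against 1.05%. A match describes the letters in these windows and not binding.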

How the data were processed

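CUT&RUN of A673 and CHLA10 cells used 250000 to 500000 cells per library and paired reads of 25 bp, per the labels. The build hg38 and the tools MACS2, Bowtie2, bedtools and SEACR 1.2 appear in the submitters' processing notes, which assign them no role. How reads that match several paralogous members were treated is not given in the sources used here, so peaks at closely related members are uncertain. Peak names in the deposited lists say that narrow peaks were called per library against IgG for every target except H3K27me3. H3K27me3 was called as broad peaks of at least 2000 bp. For each peak the authors deposited a fold enrichment (a ratio over background), −log10 p and −log10 q values, and a score. The score was checked to be 10 times −log10 q, cut to a whole number, in all but 12 peaks. Peak numbers have gaps: the lists kept 1.00% to 77.2% of the highest number, by a criterion not given in the sources used here.

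RefSeq (GRCh38.p14) gave gene boundaries. A peak marked a gene when it overlapped the 1 kb to either side of one of its boundaries by at least 1 bp. Windows of 23 member pairs overlap, so a peak can count for both. The percentile of a peak is its rank by −log10 q within its list. Strand and promoters were given for 216 of 246 members. Calls and stretches were tested on simulated peaks with Python 3.11.15, pandas 2.3.3 and NumPy 2.4.6; SciPy 1.17.1 gave the exact permutation test. Members, gene lists, tests and alternatives were chosen with earlier results of these data known. The size of a large cluster (10 members), the coverage of clusters, distances to A673 peaks, percentiles by gene set, the ZFP, ZSCAN, ZIM and ZIK genes, motifs and the printed promoters were chosen after the files were seen. Named genes were up to 5 members per mark and line ranked by mean percentile, those with HOXD13 peaks, those inside stretches, and 2 fixed lists; others that a small count or the text singles out were chosen after their values were seen.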

Additional observations from a re-analysis of the deposited data

How the results depend on the processing

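Of 105 alternative values, 73 stayed within 1.5 times the reported count, as did 45 of the 65 that leave out no library. A count of 0 that stayed 0, as for H3K27me3 in CHLA10 only, was included among those within 1.5 times. No paired analysis was possible because the counts come from no test and replicate numbers of the lines are not said to pair libraries. H3K4me3 in CHLA10 only (22) was 18 to 22 with other windows, overlaps or equal peak numbers, 21 with shared peaks counted once (chosen after seeing the data), 23 to 27 leaving out a library in turn, and 89 with the upper 50% of each list. H3K4me3 in A673 only (0) was 1 at gene starts (ZNF544), 2 with the upper 50%, and 0 to 1 leaving out a library. H3K27ac in CHLA10 only (26) was 7 with the upper 50% and 28 to 69 leaving out a library. H3K27ac in A673 only (1) was 3 over whole genes, 0 at starts, 0 with equal peak numbers and 1 to 3 leaving out a library. H3K4me1 in A673 only (1) was 3 with windows of 2.5 kb, 0 with the upper 50%, 0 with equal numbers and 1 to 10 leaving out a library. H3K4me1 in CHLA10 only (1) was 0 over whole genes, at starts, with the upper 50% and with an overlap of 200 bp, and 1 to 3 leaving out a library. H3K27me3 in A673 only (0) was 0 to 1 leaving out a library. HOXD13 peaks over whole genes numbered 5 in A673 and 1 in CHLA10. A673-free stretches (29) numbered 43 at 50 kb, 17 at 200 kb, 32 with the upper 50% and 21 to 33 leaving out a library. CHLA10-free stretches (7) numbered 84 at 50 kb, 2 at 200 kb, 30 with the upper 50% and 5 to 15 leaving out a library, so the order of the 2 counts turned at 50 kb and nearly vanished with the upper 50%. Leaving out a library kept the HOXD13 lists in the stretches. The causes of these shifts were not tested. Without read counts, an absent peak cannot be told from a peak below the callers' or the depositors' threshold.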
